A study of Mus musculus with 16 samples.

Results

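Astrocytes of the spinal cord were sorted by an IL-33 reporter into positive and negative cells, and the RNA of both gates was sequenced. The comparison rests on 8 of the 16 libraries of the study, 4 from positive and 4 from negative cells, 1 of each from each of 4 mice, paired by mouse number. The mice were C57BL/6 animals at postnatal day 15, and every library of both gates came from the same genotype, 1 mCherry reporter allele of Il33 (IL-33-mCherry (het)) together with an Aldh1l1-GFP transgene. The other 8 libraries were positive and negative astrocytes of the thalamus of the same mice. They entered the model, and they are used below only where a difference between gates in the spinal cord was set against that in the thalamus. The sources used here do not say whether GFP was also gated. Members of a group were separate animals, and no group was pooled.

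Interleukin-33 is an alarmin of the interleukin-1 family that is kept in the nucleus and acts, once released, on cells that carry its receptor ST2. In the postnatal central nervous system it is made mainly by astrocytes, and in some regions also by oligodendrocytes. Astrocytes of grey matter, called protoplasmic, contact synapses and blood vessels, clear glutamate and potassium and are joined by gap junctions, whereas fibrous astrocytes of white matter run between myelinated axons and hold more intermediate filament protein.

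Values are FPKM as the authors deposited them, by definition fragments normalised to transcript length and to the mapped fragments of a library. The processing notes name Cuffnorm, so the values may also carry a scaling between libraries, which was not tested. Changes are log2 fold changes, positive minus negative, on the log2(FPKM + 1) scale with their standard error, which understates the change of weakly expressed genes. A gene was called when its Benjamini-Hochberg adjusted p in limma, over all features tested, was under 0.05. Per-library values are in the order of mice 1 to 4. Summed FPKM per library ran from 984986 to 1182121 in positive and from 1233151 to 2233820 in negative libraries. The highest was the negative library of mouse 1. Mitochondrial features held 43.7% to 49.2% of the sum in positive and 46.7% to 71.8% in negative libraries. Several mitochondrial transcripts of high abundance are listed at 0 in part of the libraries, so these sums and shares cannot be compared between gates. Between 14074 and 14285 features reached 1 FPKM in positive and between 13260 and 14012 in negative libraries. The positive libraries resembled each other more: across features, each library correlated on average with the rest of its group at 0.940 to 0.942 in the positive and 0.859 to 0.872 in the negative gate, and the median SD of a protein-coding gene within a group was 0.17 and 0.44 on the log2 scale.

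The gates were first checked against Il33 and Aldh1l1. Il33 (chromosome 19) stood at 24.6, 31.2, 25.1 and 30.6 FPKM in the positive and at 36.5, 21.6, 19.98 and 20.4 FPKM in the negative libraries. The negative library of mouse 1 held the highest value of all 8, and the groups overlapped. The difference of the means was 3.26 FPKM, with p = 0.625 in a two-sided exact permutation test that swaps libraries within mice, where the smallest possible p is 0.125. Without mouse 1 the difference was 8.30 FPKM, with the positive library above the negative one in 3 of 3 mice. The names positive and negative therefore follow the sort labels, not the level of the transcript. Aldh1l1, a folate enzyme gene used as an astrocyte marker, stood at 24.2, 25.8, 26.7 and 24.9 FPKM in positive libraries, against 19.7, 16.1, 22.4 and 21.5 in negative ones. Its positive libraries all lay above the negative ones, but the change of 0.34 ± 0.23 did not pass the test (adjusted p = 0.319).

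Astrocyte markers were high in both gates. Sox9, a glial transcription factor gene that in the mature cord marks astrocytes, was at 45.7 ± 1.31 FPKM in the positive and 46.9 ± 13.6 in the negative libraries (SD, n = 4 each, as for every ± on a mean below). All 20 pan-astrocyte markers were tested, and their summed level was 21547 to 24912 FPKM in the positive gate and 14635 to 18919 in the negative. Marker sums of oligodendrocyte lineage, ependymal, mural and neuronal cells were lower in every positive than in any negative library. The 18 oligodendrocyte and myelin markers summed to 207 to 242 FPKM in the positive gate and 4139 to 4321 in the negative, with none of them at 0 in all positive libraries. The 11 precursor markers in the data summed to 239 to 281 and 653 to 829 FPKM. In the positive gate most of that sum came from Olig1 and Olig2, with means of 177 and 56.8 FPKM. The 15 ependymal markers summed to 16.3 to 23.6 and 146 to 188 FPKM. The 10 mural markers summed to 23.1 to 26.8 and 69.3 to 120.2 FPKM. Microglial markers were low in both gates, with 21.6 to 29.8 and 27.5 to 37.4 FPKM over 12 genes. Neuronal markers were low too, with 25.9 to 36.3 and 45.7 to 69.96 FPKM over 13 genes. Of the 9 neuronal markers tested 1 was called, lower. The endothelial sum overlapped, with 381 to 491 and 212 to 532 FPKM over 15 genes, most of it from Slc2a1 and Bsg, which are not confined to vessels. The meningeal and fibroblast sum overlapped as well, with 51.5 to 75.2 and 41.9 to 67.2 FPKM. In bulk libraries such as these, fewer cells of a type and less RNA per cell cannot be told apart. The share of other cell types in the results below was not tested.

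Some genes of the oligodendrocyte lineage differed little between the gates or were not called. Olig1, a transcription factor gene of that lineage, was at 177 ± 12.3 FPKM in positive and 222 ± 8.21 in negative libraries. Its positive libraries all lay below the negative ones, but the change did not pass the test (adjusted p = 0.275). Olig2, its neighbour gene, fell by only 0.63 (adjusted p = 0.00876), with 77.7, 49.6, 43.1 and 56.8 FPKM in positive libraries, against 111, 80.8, 81.7 and 75.1 in negative ones. The Olig2 groups overlapped, as the positive library of mouse 1 lay above the negative one of mouse 4. The adjusted p of Olig2 was 0.0787 without mouse 3 and 0.0727 without the pairing by mouse. Aspa, which encodes the enzyme that cleaves N-acetylaspartate, was the 1 member of the oligodendrocyte list that was not called, with 56.4, 46.1, 35.9 and 37.2 FPKM in positive libraries, against 69.7, 26.1, 34.7 and 50.5 in negative ones. The values of the 2 groups overlapped. By contrast Sox10, another transcription factor gene of the lineage, had a mean 114 times as high in negative as in positive libraries (below). Sox9, Olig1, Olig2 and Aspa, and below Kcnj10, Gfap, Mbp, Per3, Bhlhe41, Npas2, Rora, P2ry1 and Actb, were chosen after their values were seen.

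Over the whole transcriptome 3247 of 15930 features were called (20.4%), 1488 higher (9.34%) and 1759 lower (11.0%) in positive libraries. Of 12567 protein-coding genes 2669 were called (21.2%): 1004 were higher (7.99%) and 1665 lower (13.2%). The counts of list members below are to be read beside these shares. The falls were deeper than the rises: 365 protein-coding genes fell and 13 rose by 2 or more on the log2 scale, and 49 fell and 0 rose by 4 or more. The median change of called genes was 1.00 for those that rose and -1.22 for those that fell, against -0.02 over all protein-coding genes tested. Gates without overlap were common. Of all features 14.1% had every positive library above every negative one, and 14.4% had the reverse. Among protein-coding genes these shares were 12.5% and 17.3%. Statements on overlap of single genes are to be read beside them. Where the fit left out all libraries of mouse 2, 3 or 4 the count of called features was 2122, 1742 and 1891. When values were rescaled to nuclear protein-coding genes, 54.8% of calls were higher, against 45.8%. The plot of change against level shows this shape.

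**Figure D1:**
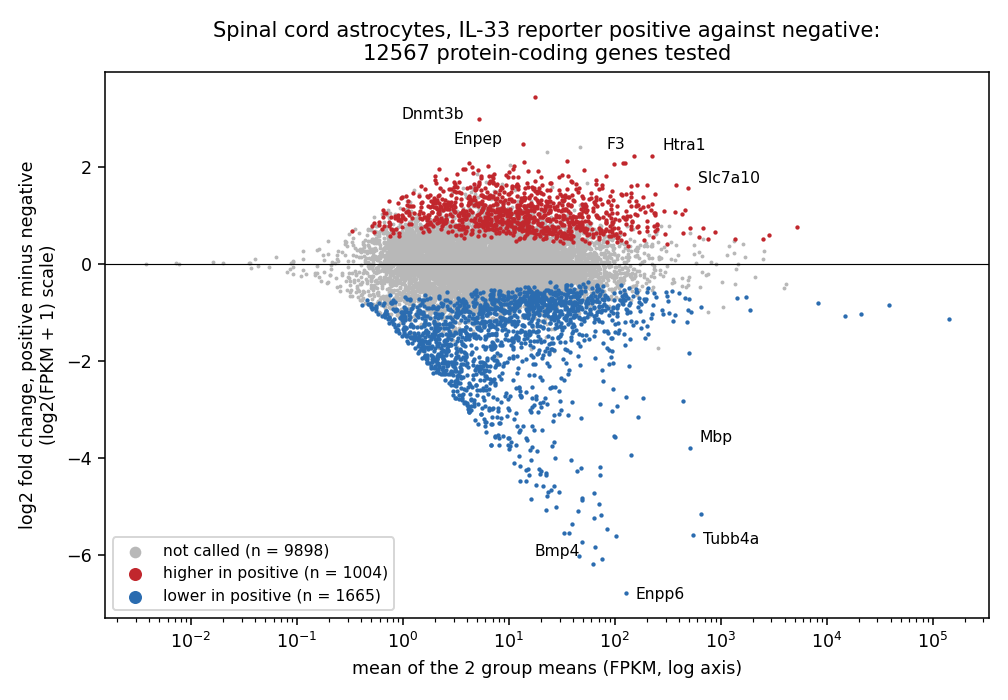
Each point is a protein-coding gene, with the mean of both group means in FPKM on a log x axis and the log2 fold change, positive minus negative, on the y axis; red genes were called higher (1004), blue genes lower (1665). The blue genes reach below -6 while no red gene reaches 4.

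Noncoding features leaned the other way. Of 1545 long noncoding RNAs 222 were higher and 47 lower, of 650 pseudogenes 91 and 14, and of 845 short RNAs 141 and 16. The median change was 0.37, 0.46 and 1.03 in these classes. The kit is not described as strand-specific in the sources used here, so reads of a gene and of its antisense partner cannot be told apart. Short RNAs can also overlap a longer gene on the same strand. A small nucleolar RNA that overlaps Mertk in this way rose from 23.8 to 197 FPKM, and Mertk rose too (below). The share of reads from such longer genes in the short RNA counts was not tested. Mkln1os, a transcript antisense to Mkln1, rose by 1.79 ± 0.37, while Mkln1 itself was called higher too, with 53.5 against 27.1 FPKM. Bcas1os1 and St8sia3os, antisense to Bcas1 and St8sia3, fell by 4.66 and 3.63, and the genes they overlap were lower too.

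Leading genes are protein-coding, were called, moved alike in all 4 mice and reached a mean of 10 FPKM in the higher group. Of all features 37 rose by 4 or more, and 0 of these were protein-coding. Among leading genes with an established name, the largest rise was that of Dnmt3b. Dnmt3b is a de novo DNA methyltransferase gene (chromosome 2, 153649450 to 153687730, plus strand, GRCm38). It had 9.46, 10.5, 7.40 and 12.8 FPKM in the positive and 0, 0.887, 0.718 and 0.136 in the negative libraries, a change of 2.97 ± 0.39 (adjusted p = 0.000209). Every negative library was under 1 FPKM and every positive one above 7. Of the other 9 genes of DNA methylation and demethylation tested, 1 was called higher and 2 lower, and none of these 3 calls held under every alternative.

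Enpep, the gene of aminopeptidase A, which trims angiotensin peptides (chromosome 3, 129269175 to 129332720, minus strand), had 27.2, 21.3, 15.3 and 28.8 FPKM in positive and 2.96, 9.43, 3.10 and 0.897 in negative libraries (2.47 ± 0.37, adjusted p = 0.000588). The lowest positive library lay above the highest negative one, which was that of mouse 2. Htra1, a secreted serine protease gene (chromosome 7, 130936111 to 130985660, plus strand), had 345, 437, 388 and 316 FPKM in positive libraries, against 70.6, 70.7, 96.1 and 77.8 in negative ones (2.22 ± 0.25, adjusted p = 6.84e-05), and the groups were far apart in all mice. F3, the tissue factor gene that starts blood clotting (chromosome 3, 121723537 to 121735048, plus strand), had 236, 289, 249 and 221 FPKM in the positive and 59.7, 58.4, 56.5 and 39.6 in the negative libraries (2.21 ± 0.14, adjusted p = 5.02e-07). The negative library of mouse 4 was the lowest, away from the other negative ones.

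Il15ra, the gene of the interleukin-15 receptor subunit that presents the cytokine to other cells (chromosome 2, 11705290 to 11734317, plus strand), had 68.00, 54.3, 50.1 and 57.1 FPKM in positive and 7.18, 11.9, 15.1 and 18.4 in negative libraries, with no overlap. The change was 2.10 ± 0.48 (adjusted p = 0.00938), but the adjusted p was 0.0773 without mouse 1 and 0.054 without mouse 2, with a range of 0.000839 to 0.0773 over the alternatives. Other leading genes that rose were Atp13a4, a P5-type transport ATPase gene (47.5 ± 17.9 to 193 ± 13.2 FPKM), Pfkp, a phosphofructokinase gene of glycolysis (48.1 ± 15.8 to 199 ± 32.2 FPKM), and Sat1, the polyamine acetylase gene (38.2 ± 13.7 to 156 ± 6.83 FPKM), all written from negative to positive. Their changes were 2.07, 2.07 and 2.06. Hif3a, a hypoxia-inducible factor subunit gene, rose by 1.93, Adora2b, an adenosine receptor gene, by 1.91, Ephx1, an epoxide hydrolase gene, by 1.95, and Pnpla7, a lysophospholipase gene, by 1.91. In 983 of the 1004 protein-coding genes called higher the positive library was the higher one in all 4 mice, and 1636 of the 1665 called lower were lower in all 4. The test itself favours genes whose mice agree, so these counts add no separate support.

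**Figure D2:**
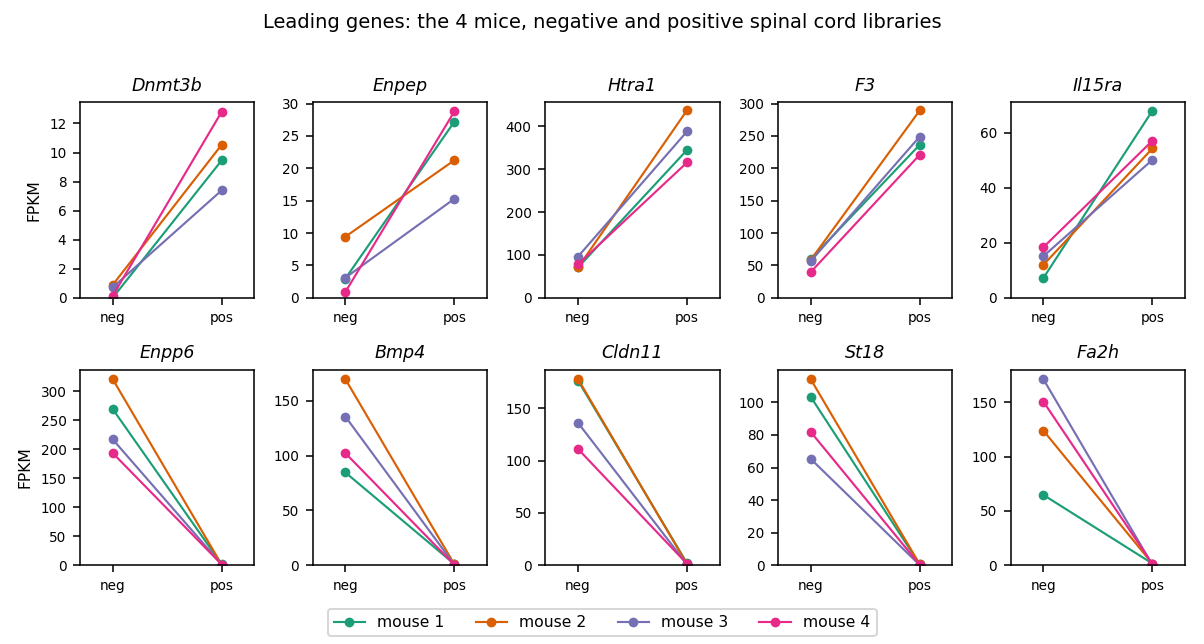
FPKM of the 5 genes with the largest rises (top) and falls (bottom) among protein-coding genes that met the naming rule, for the negative and positive spinal cord library of each of 4 mice joined by a line. The naming rule required the same direction in all 4 mice, so all lines run the same way within a gene. The positive libraries of the lower genes sit close to 0.

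Most markers of grey matter astrocytes were called higher. Of 17 protoplasmic markers 14 were called higher and 0 lower, with a median change of 0.96, against 0.08 over all features tested. Without mouse 2, 3 or 4, or without the positive library of mouse 2 or either library of mouse 3 or 4, the count was 9. Slc7a10, the transporter of D-serine and other small neutral amino acids, had 801, 800.2, 722 and 618 FPKM in positive libraries, against 314, 196, 232 and 271 in negative ones (1.55 ± 0.16, adjusted p = 3.13e-05). All positive libraries lay above all negative ones. The neighbouring gene Lrp3, which overlaps it on the other strand, moved the same way (128 and 37.1 FPKM), so the share of each is uncertain. Kcnk1, a two-pore potassium channel gene, rose from 127 ± 25.1 to 345 ± 65.6 FPKM (1.43), Itih3, a hyaluronan-binding inhibitor chain gene, from 49.8 ± 7.02 to 121 ± 11.3 FPKM (1.27), and Slco1c1, a thyroid hormone transporter gene, from 14.6 ± 2.32 to 34.1 ± 2.44 FPKM (1.18). Kcnj10, the inward rectifier channel gene that carries most glial potassium uptake, did not follow, with 687, 777, 714 and 639 FPKM in the positive and 918, 859, 771 and 707 in the negative libraries (adjusted p = 0.481). Its groups overlapped.

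The general astrocyte genes were less uniform. Of 20 pan-astrocyte markers 11 were called higher and 1 lower, with a median of 0.50. The count of higher members was 7 without mouse 2, 5 without mouse 3 or 4, 6 without the positive library of mouse 2, and 7 without any 1 library of mice 3 and 4, without the filter on low values or in a fit of the 8 spinal cord libraries alone. Fgfr3, a fibroblast growth factor receptor gene of astrocytes, rose from 98.6 ± 15.1 to 302 ± 41.6 FPKM (1.61), and Ntsr2, a neurotensin receptor gene, from 179 ± 24.5 to 316 ± 29.9 FPKM (0.82). S100b, a calcium-binding protein gene that oligodendrocyte cells also express, was the 1 marker that fell, from 151 ± 22.7 to 84.5 ± 8.16 FPKM (-0.82). Among the most abundant genes of the positive libraries, Atp1b2, a sodium pump subunit gene, was at 6586 ± 541 FPKM against 3876 ± 139.9 FPKM (0.76, adjusted p = 0.00847, 0.077 without mouse 3 and 0.0602 without mouse 4), while Apoe, the main lipid carrier gene of astrocytes, was at 1535 ± 161 and 1117 ± 176 FPKM and was not called (adjusted p = 0.244).

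Markers of white matter astrocytes that were called mostly fell. Of 14 fibrous markers tested 8 were lower and 1 higher, with a median of -0.92, and without mouse 3 the count of lower members was 4. The call of the 1 higher member was lost without mouse 2, 3 or 4. Vim, the vimentin gene of intermediate filaments, had 12.4, 16.1, 15.8 and 11.1 FPKM in positive and 294, 126, 187 and 122 in negative libraries (-3.54 ± 0.27, adjusted p = 3.13e-06). Gfap, the gene of the filament protein most used to stain astrocytes, had 45.3, 51.2, 47.2 and 45.3 FPKM in positive libraries, against 142, 97.8, 192 and 136 in negative ones. The 2 ranges did not overlap for either gene, and the change of Gfap was -1.53 ± 0.32 (adjusted p = 0.00586, 0.057 without mouse 3). Igfbp5, an insulin-like growth factor binding protein gene, fell from 83.1 ± 20.2 to 3.63 ± 2.17 FPKM, and Myoc, the myocilin gene, from 24.6 ± 19.4 to 0.393 ± 0.536 FPKM. Myoc was above 1 FPKM in only 1 positive library, that of mouse 1. Vim and Igfbp5 are also made by ependymal, vascular and precursor cells, whose markers were higher in the negative gate (above).

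**Figure D3:**
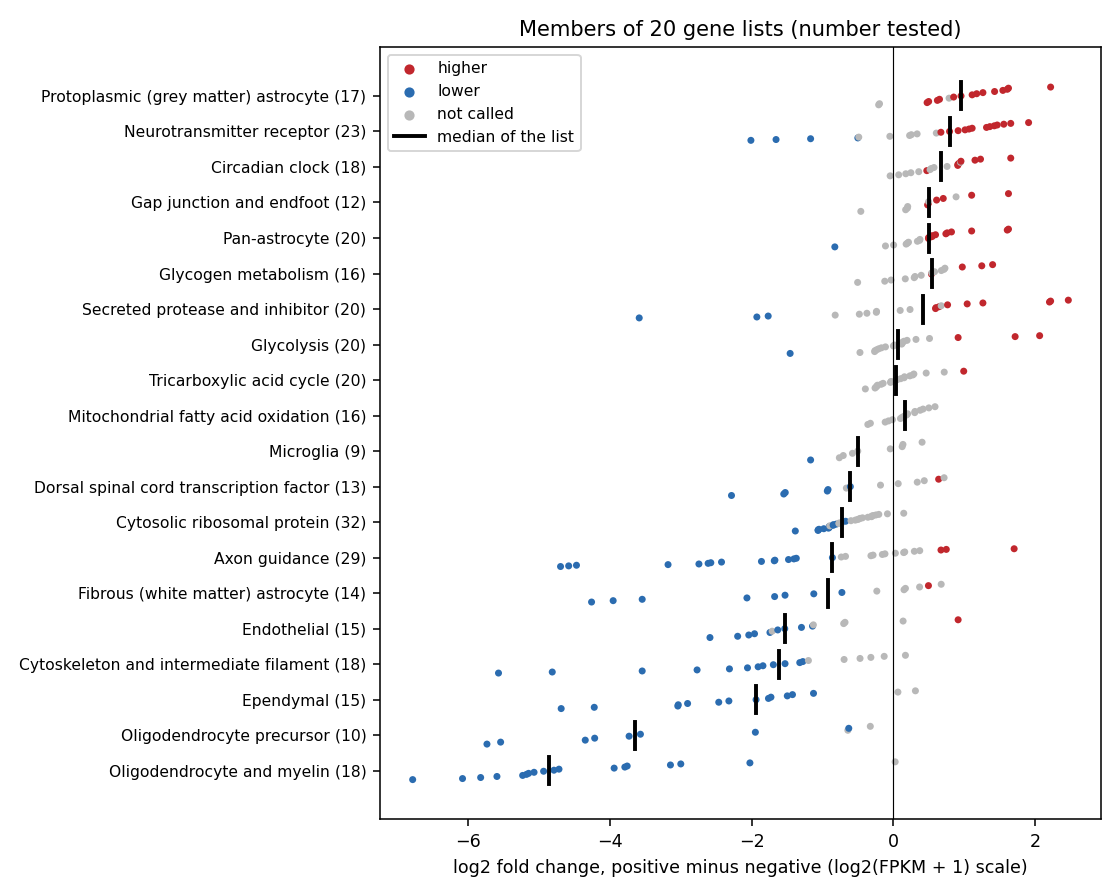
Every tested member of 20 gene lists by its log2 fold change, positive minus negative, in red where called higher, in blue where called lower and in grey otherwise, with the list's median as a black bar. The protoplasmic list has its median at 0.96 and the oligodendrocyte list at -4.86.

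Of 23 receptor genes for transmitters and modulators tested, 13 were called higher and 4 lower, with a median of 0.80. The share called was 73.9%, beside the 20.4% of all features. The 13 higher were 9 without mouse 2 or 3 and 10 without mouse 4. The 4 lower were 2 without mouse 2, 3 or 4 or without the positive library of mouse 1. P2ry1, a purine receptor gene that drives calcium signals in astrocytes, had 40.3, 44.1, 39.1 and 41.3 FPKM in the positive and 20.02, 13.5, 15.7 and 13.02 in the negative libraries (1.36 ± 0.19, adjusted p = 0.000388). Adora2b, the low-affinity adenosine receptor gene of the leading set, had 24.6, 37.5, 29.1 and 28.8 FPKM in positive and 3.74, 7.83, 7.18 and 11.9 in negative libraries. Neither receptor overlapped between gates. Among the receptor genes that fell were the AMPA receptor subunits Gria3 (21.97 ± 8.50 to 4.47 ± 1.07 FPKM) and Gria1 (36.9 ± 9.52 to 11.1 ± 3.36 FPKM), both also expressed by oligodendrocyte precursors.

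Uptake and ion transport genes were split. Slc38a3, a glutamine transporter gene, had 146, 135, 137 and 124 FPKM in the positive and 56.4, 48.6, 50.9 and 62.1 in the negative libraries (1.30 ± 0.20, adjusted p = 0.000674). Every positive library lay above every negative one. Slc38a1, another glutamine transporter gene, fell from 30.3 ± 6.63 to 14.5 ± 0.775 FPKM (-0.98). Of 13 uptake and recycling genes tested, 4 were higher and 2 lower. Without mouse 3 only 1 was lower, and the 4 higher were 2 without mouse 2, 3 or 4, without the positive library of mouse 2, without either library of mouse 3 or 4, or without the filter on low values. Slc12a2, a sodium, potassium and chloride cotransporter gene, fell from 18.9 ± 4.08 to 2.76 ± 0.321 FPKM (-2.38). Of 12 gap junction and endfoot genes 6 rose, 0 fell and 6 were not called. The count was 3 without mouse 2, the positive library of mouse 2 or either library of mouse 3, without the filter on low values, with library weights by group or in the paired fit of the 8 spinal cord libraries alone, and 2 without mouse 3 or 4. Gjb6 (connexin 30) had 482, 649.5, 622 and 539.6 FPKM in positive and 217, 201, 176 and 148 in negative libraries (1.63 ± 0.17), and Gja1 (connexin 43) had 596, 701, 614 and 574 and 256, 310.0, 281 and 304 FPKM (1.11 ± 0.17). Their adjusted p was 4.55e-05 and 0.000718, and neither overlapped between gates.

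Of 20 glycolysis genes 3 rose and 1 fell, a share of 20.0% that is close to the 20.4% of all features. The 3 were Pfkp (above), Pfkfb3, whose product makes the activator of phosphofructokinase (33.3 ± 18.7 to 100.5 ± 9.12 FPKM, 1.72), and the glucose transporter gene Slc2a1 (86.9 ± 9.78 to 166 ± 28.9 FPKM, 0.92), which endothelial cells also express. Of 16 glycogen genes 4 rose and 0 fell, a share of 25% that is near the 20.4% of all features. Among them was Phkg1, a phosphorylase kinase subunit gene (21.9 ± 7.02 to 57.4 ± 4.08 FPKM, 1.40). The glycogen count was 2 without mouse 2 or 4, without either library of mouse 3 or in a fit of the 8 spinal cord libraries alone, and 1 without mouse 3. In the tricarboxylic acid cycle 1 of 20 genes rose, Suclg1, a subunit of succinate-CoA ligase (1.00). In cholesterol synthesis 3 of 22 genes fell and 2 rose, a share of 22.7% beside the 20.4% of all features, and Hmgcs1, an early enzyme gene of the pathway, fell from 122 ± 26.1 to 45.7 ± 2.59 FPKM (-1.38). The lower count was 1 without mouse 3 or 4, and the higher count was 0 without mouse 2 or 4 and 1 without mouse 1 or 3. The hypoxia genes Vegfa and Ndrg1 went opposite ways. Vegfa, the vascular growth factor gene, had 314, 329.6, 293 and 310.0 FPKM in positive libraries, against 123, 133, 142 and 129 in negative ones (1.24 ± 0.12, adjusted p = 2.35e-05). Ndrg1, which myelinating cells also express, fell from 12.01 ± 7.24 to 1.27 ± 0.354 FPKM (-2.37). An antisense transcript that overlaps Ndrg1 moved the same way, from 16.8 to 0.344 FPKM, so the share of each is uncertain.

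All clock genes that were called were higher in the positive gate. Clock proteins form a daily feedback loop in which BMAL1 (Arntl) and NPAS2 or CLOCK activate genes through E-box sites, PER and BHLHE proteins repress them, and the output factors DBP and TEF act on D-box sites. Of 18 clock genes 8 were called higher and 0 lower, a share of 44.4% beside the 20.4% of all features. Their median was 0.67, and the count of higher members was 5 without mouse 2 and 4 without mouse 3. The sources used here do not give the time of day of collection. To show which of these sites stand before the genes that rose, the 250 bases upstream of a start (RefSeq, GRCm38.p6) were searched on both strands for the E-box CACGTG and the D-box TTATGTAA. A promoter was in the table for 7 of the 8 genes called higher and for 9 of the 10 not called. The printed ones are the 3 genes called higher with a match, Tef with both of its starts, read 5′ to 3′ on the gene's strand with the match in capitals:
Per3, chr4:151044666-151044915, minus strand: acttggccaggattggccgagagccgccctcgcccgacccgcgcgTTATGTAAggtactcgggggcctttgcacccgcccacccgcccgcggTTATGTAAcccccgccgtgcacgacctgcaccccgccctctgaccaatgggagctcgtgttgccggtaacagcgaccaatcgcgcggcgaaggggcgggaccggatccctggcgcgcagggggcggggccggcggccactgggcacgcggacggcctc
Tef, chr15:81802423-81802672, plus strand: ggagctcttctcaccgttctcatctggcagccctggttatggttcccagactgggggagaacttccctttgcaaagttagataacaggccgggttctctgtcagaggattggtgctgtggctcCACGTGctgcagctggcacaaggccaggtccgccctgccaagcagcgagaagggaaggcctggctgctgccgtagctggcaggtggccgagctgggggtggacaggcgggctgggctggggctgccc
Tef, chr15:81811164-81811413, plus strand: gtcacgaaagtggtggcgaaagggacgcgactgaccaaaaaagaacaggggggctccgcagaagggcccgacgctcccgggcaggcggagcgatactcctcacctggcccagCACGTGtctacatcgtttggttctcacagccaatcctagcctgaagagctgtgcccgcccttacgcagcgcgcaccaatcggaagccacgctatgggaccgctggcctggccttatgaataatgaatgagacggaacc
Bhlhe41, chr6:145865421-145865670, minus strand: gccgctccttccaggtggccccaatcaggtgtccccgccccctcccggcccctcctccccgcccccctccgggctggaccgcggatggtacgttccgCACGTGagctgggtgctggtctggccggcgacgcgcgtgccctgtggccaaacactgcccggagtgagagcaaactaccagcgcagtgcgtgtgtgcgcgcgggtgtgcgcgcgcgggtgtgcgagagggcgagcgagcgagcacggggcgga
The E-box stood before Tef, at both starts, and before Bhlhe41. The D-box stood 2 times before Per3, beginning at bases -205 and -158 from the start. Among the clock genes not called, 3 of 9 held the E-box and 0 the D-box. Of all 32851 promoters 6.02% held the E-box and 0.819% the D-box. The E-box was in 7.84% of promoters of features called higher, 6.77% of those called lower and 8.07% of those not called.

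Per3, a period gene, had 33.1, 30.8, 28.7 and 32.7 FPKM in the positive and 15.03, 16.03, 16.4 and 17.1 in the negative libraries (0.91 ± 0.18, adjusted p = 0.00378). Bhlhe41, the gene of a clock repressor also called DEC2, had 31.3, 32.6, 28.04 and 29.3 and 16.7, 12.98, 16.3 and 16.8 FPKM (0.91 ± 0.14, adjusted p = 0.000541). All positive libraries lay above all negative ones in both genes. Per2 rose from 3.65 ± 1.09 to 9.15 ± 0.569 FPKM (1.16, adjusted p = 0.00134), and Dbp from 2.93 ± 2.28 to 9.99 ± 2.82 FPKM (1.66, adjusted p = 0.00591). Arntl (1.23), Tef (0.96), Npas2 (0.93) and Rora (0.47) were also called, but their calls were less steady. A pseudogene that overlaps Npas2 on the same strand moved the same way, from 1.55 to 10.5 FPKM, so the share of each is uncertain. The adjusted p of Arntl was 0.0674 without mouse 2 and 0.0513 without mouse 3, and that of Npas2 was 0.119 without mouse 3, 0.0542 without mouse 4 and 0.0528 without the positive library of mouse 3. For Tef it was 0.0819, 0.119 and 0.0654 without mouse 1, 2 or 3, and 0.0694, 0.058, 0.0642 and 0.0749 without the negative library of mouse 1 or 2 or the positive library of mouse 2 or 4. For Rora it was 0.051 to 0.129 without any 1 of the 8 libraries and 0.0764 to 0.219 without any 1 mouse. The plot of clock genes by mouse shows each pair.

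**Figure D4:**
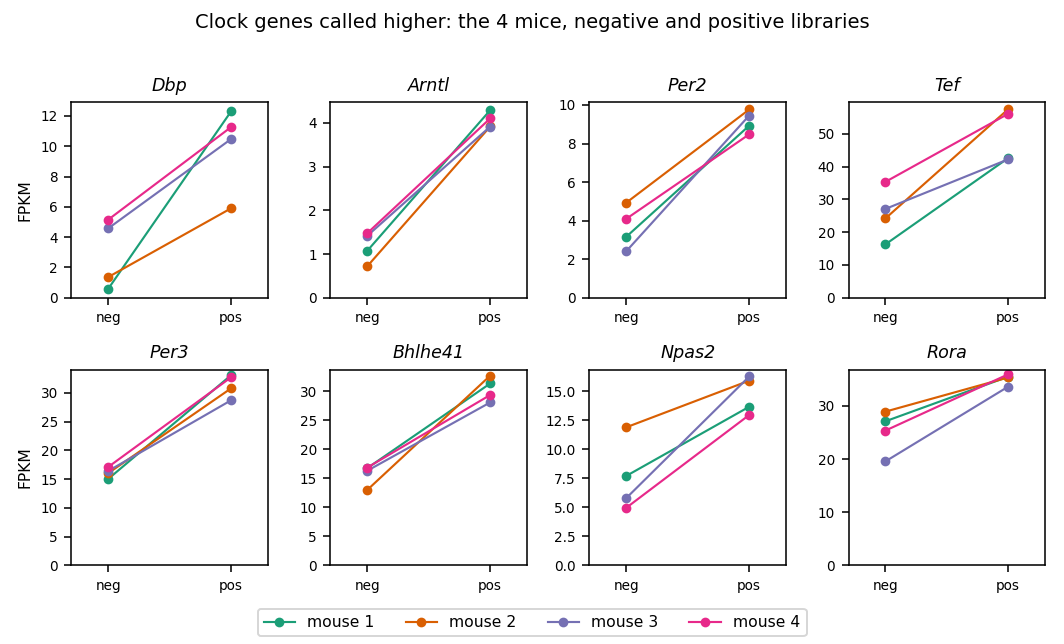
FPKM of the 8 clock genes called higher, for the negative and positive spinal cord library of each of 4 mice joined by a line. The positive library is the higher one in every mouse for all 8 genes.

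In the Notch pathway 5 of 15 tested rose and 1 fell, a share of 40% called beside the 20.4% of all features. Hes5, a transcription factor gene that Notch activates, had 5.16, 4.23, 3.16 and 3.80 FPKM in positive and 0.113, 0.288, 0.570 and 0.264 in negative libraries (1.96 ± 0.19, adjusted p = 2.34e-05), with no overlap. Lfng, a glycosyltransferase gene that tunes Notch receptors, rose from 12.5 ± 4.29 to 36.1 ± 6.29 FPKM (1.52). The Notch count was 2 without mouse 2 or 3, the positive library of mouse 2 or the negative library of mouse 3, and 3 without mouse 4, the positive library of mouse 1 or 3, or the negative library of mouse 4. In the Hedgehog pathway Boc, a coreceptor gene, rose from 11.1 ± 2.70 to 28.7 ± 3.32 FPKM (1.31), while the related Cdon fell from 2.26 ± 0.943 to 0.0924 ± 0.0605 FPKM (-1.54). Of 16 fibroblast growth factor pathway genes 2 were called higher and 0 lower, 12.5% beside the 20.4% of all features. The 2 were Fgfr3 (above) and Dusp6. Dusp6, the phosphatase gene that growth factor signalling induces as its own brake, rose from 6.76 ± 1.05 to 16.9 ± 2.68 FPKM (1.20). Spry1, Spry2, Spry4, Spred1 and Spred2, of the same list, were not called.

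Wnt and bone morphogenetic protein (BMP) genes moved in both directions. Of 20 Wnt genes 7 rose and 6 fell: Lgr6, a receptor gene for R-spondins, had 29.04, 33.7, 30.6 and 30.1 FPKM in positive libraries, against 11.6, 8.69, 10.1 and 13.1 in negative ones (1.44), and Fzd1, a frizzled receptor gene, 143, 199, 173 and 173 and 70.2, 91.4, 90.5 and 72.3 FPKM (1.08). Both were apart in all libraries. Wnt7a, a ligand gene that acts on vessels and synapses, rose from 72.6 ± 33.6 to 184 ± 24.7 FPKM (1.42). The higher count was 3 without mouse 3 and 4 without mouse 2 or 4 or the positive library of mouse 1, 3 or 4. The lower count was 3 without mouse 1 or 3 or either library of mouse 4, 2 without the positive library of mouse 2 and 1 without mouse 4. Among the BMP ligands Bmp7 rose from 7.07 ± 2.28 to 20.8 ± 2.24 FPKM (1.46) and Bmp6 fell from 5.93 ± 1.69 to 0.271 ± 0.149 FPKM (-2.42), and Bmp4 fell furthest (below).

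Of 21 cytokine, chemokine and receptor genes tested 5 were higher and 2 lower, a share of 33.3% called, and of 9 complement genes 2 were higher and 2 lower, a share of 44.4%, beside the 20.4% of all features. The cytokine count of higher genes was 3 without mouse 2, and that of lower genes 4 without the negative library of mouse 2 and 1 with a filter at 5 FPKM. The complement count of higher genes was 1 without mouse 2, 3 or 4 or any 1 library, and that of lower genes 1 without mouse 1 and 0 with a filter at 5 FPKM. Il18, the gene of another interleukin-1 family cytokine, had 48.6, 59.3, 40.9 and 49.5 FPKM in the positive and 10.2, 13.97, 13.2 and 15.4 in the negative libraries (1.83 ± 0.22, adjusted p = 0.000125), apart in every library. Lifr, a receptor gene for leukemia inhibitory factor, rose from 18.4 ± 3.60 to 37.5 ± 5.76 FPKM (1.00). Cxcl12, a chemokine gene, and Il1rap, a coreceptor gene that the IL-33 receptor shares with the interleukin-1 receptor, fell to 0.419 ± 0.240 and 0.925 ± 0.171 FPKM from 5.47 ± 3.17 and 6.70 ± 1.24 FPKM. C3, the central complement gene, was at 0.521, 0, 0.925 and 0.0167 FPKM in positive and 23.8, 17.4, 21.7 and 1.56 in negative libraries (-3.28 ± 0.49, adjusted p = 0.00062). In the negative library of mouse 4 it stood far below the other negative ones. Of 16 interferon response and MHC class I genes tested 1 was called, higher, and it was not called without mouse 2, 3 or 4. The phagocytosis receptor gene Mertk rose from 18.4 ± 8.61 to 59.5 ± 19.4 FPKM (1.68), with an overlapping antisense transcript that moved the same way, and Abca1, a lipid exporter gene used in engulfment, rose by 1.08 ± 0.18.

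Genes of the oligodendrocyte lineage fell furthest. Enpp6, a choline phosphodiesterase gene that marks newly formed oligodendrocytes (chromosome 8, 46986887 to 47096762, plus strand), had 1.57, 0.901, 1.18 and 1.34 FPKM in positive libraries, against 269.5, 321, 217 and 194 in negative ones (-6.79 ± 0.27, adjusted p = 1.2e-08). Bmp4, a BMP ligand gene (chromosome 14, 46383520 to 46390669, minus strand), had 1.11, 0.834, 0.365 and 0.405 FPKM in the positive and 84.7, 169.8, 136 and 102 in the negative libraries (-6.18 ± 0.27, adjusted p = 3.24e-08). Positive libraries were under 2 FPKM in both genes and negative ones at 84.7 FPKM or above.

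Cldn11, the claudin gene of myelin tight junctions (chromosome 3, 31149920 to 31164324, plus strand), had 1.91, 1.01, 0.669 and 1.38 FPKM in positive and 176, 178, 136 and 111 in negative libraries (-6.08 ± 0.30, adjusted p = 6.6e-08). St18, a zinc finger transcription factor gene (chromosome 1, 6487231 to 6860940, plus strand), had 0.551, 0.578, 0.152 and 0.313 FPKM in positive libraries, against 103, 114, 65.3 and 81.9 in negative ones (-6.02 ± 0.63, adjusted p = 3.83e-05). Fa2h, the fatty acid hydroxylase gene of myelin lipids (chromosome 8, 111345135 to 111393824, minus strand), had 1.63, 1.52, 0.416 and 1.21 FPKM in the positive and 64.7, 124, 171 and 151 in the negative libraries (-5.83 ± 0.45, adjusted p = 3.09e-06). None of the 3 overlapped, and the negative library of mouse 1 was the lowest negative one for Fa2h but not for the others.

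As a list, 17 of 18 oligodendrocyte and myelin genes fell and 0 rose, with a median of -4.86, and the count was 17 in every fit that left libraries out. Mbp, the myelin basic protein gene, fell from 950.0 ± 139.8 to 67.3 ± 2.57 FPKM and Bcas1, a gene of early myelinating cells, from 200.1 ± 11.6 to 3.17 ± 0.322 FPKM. Their changes were -3.79 and -5.59. Positive libraries thus still held 64.5 to 70.6 FPKM of Mbp. Of 10 precursor markers tested 8 fell, with a median of -3.65: Sox10, the lineage transcription factor gene, fell from 96.3 ± 15.6 to 0.841 ± 0.438 FPKM (-5.74), and Gpr17, a receptor gene of committed precursors, from 65.2 ± 14.8 to 0.397 ± 0.175 FPKM (-5.54). Pdgfra, the defining receptor gene of precursors, was low in both gates, at 4.47 ± 3.26 FPKM in negative and 0.252 ± 0.111 in positive libraries. Enpp6, Gpr17 and Bcas1, genes of the step between precursor and mature oligodendrocyte, were thus at 43.3 FPKM or more in every negative library, where Pdgfra reached at most 9.04 FPKM.

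Of 15 ependymal markers 13 fell and 0 rose, with a median of -1.94. Cfap54, a protein gene of the motile cilium, had 2.07, 0.993, 0.817 and 1.19 FPKM in positive and 67.3, 69.2, 59.1 and 36.3 in negative libraries (-4.69 ± 0.22), and Enkur, another cilium gene, 0.548, 0.439, 1.86 and 1.45 and 44.6, 47.6, 30.99 and 25.7 FPKM (-4.22 ± 0.33). The adjusted p was 5.33e-08 and 3.68e-06, and neither overlapped. Of 15 endothelial markers 9 fell and 1 rose, 5 without mouse 4, and the genes that fell were at low levels: Flt1, a receptor gene for vascular growth factors, fell from 7.24 ± 2.27 to 0.355 ± 0.287 FPKM and Cdh5, the endothelial cadherin gene, from 3.62 ± 1.07 to 0.166 ± 0.0970 FPKM. With a filter at 5 FPKM the count of lower endothelial members was 1. Rgs5, a pericyte gene, fell from 56.3 ± 18.5 to 6.04 ± 1.94 FPKM (-3.01).

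Of 18 cytoskeleton genes 12 fell and 0 rose, with a median of -1.61. Tubb4a, a tubulin gene abundant in oligodendrocytes, had 27.8, 22.2, 21.3 and 16.5 FPKM in positive libraries, against 1057, 1147, 1128 and 976 in negative ones (-5.57 ± 0.15, adjusted p = 7.28e-10), lower in all 4 mice. Actb, the beta-actin gene often used as a reference gene, had 119.6, 118, 124 and 106 FPKM in the positive and 214, 278, 323 and 339 in the negative libraries (-1.28 ± 0.21, adjusted p = 0.00135). The ranges were apart in both genes. Of 32 cytosolic ribosomal protein genes 13 fell, 0 rose and 19 were not called, with a median of -0.72, among them Rpl38 (-1.38) and Rps2 (-1.06). The ribosomal count was 8 without mouse 2, the negative library of mouse 1 or the positive library of mouse 2, 3 or 4, 7 without mouse 3 or the negative library of mouse 4, and 6 without mouse 4. Of 15 chaperones 5 fell (3 without mouse 3 or 4), 1 rose and 9 were not called. The share called was 40%, beside the 20.4% of all features. Hsp90aa1 fell from 157 ± 33.4 to 60.02 ± 10.3 FPKM (-1.36). Hspa5, the chaperone gene of the endoplasmic reticulum, rose from 93.3 ± 16.9 to 162 ± 9.13 FPKM (0.81).

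Genes that stimulation induces were called in both directions. Egr1, an immediate early transcription factor gene, had 0.922, 2.01, 1.16 and 1.16 FPKM in positive and 32.1, 19.9, 4.48 and 12.5 in negative libraries (-2.72 ± 0.38, adjusted p = 0.000345). The negative libraries spread widely, from mouse 3 at the bottom to mouse 1 at the top. Of 12 immediate early genes tested 5 fell, 0 rose and 7 were not called, a share of 41.7% called beside the 20.4% of all features. The count was 3 without mouse 1, either of its libraries, the positive library of mouse 2 or 4, or with a filter at 5 FPKM, and 2 without mouse 4. Sgk1, a kinase gene that glucocorticoids induce, had 2.45, 6.05, 3.26 and 3.85 FPKM in positive libraries, against 51.5, 123, 81.6 and 106 in negative ones (-4.20 ± 0.43, adjusted p = 2.86e-05), while Tsc22d3, another glucocorticoid target gene, went the other way, with 77.7, 106, 103 and 67.3 and 43.9, 28.4, 51.8 and 25.1 FPKM (1.26 ± 0.24, adjusted p = 0.00322). Both were apart in all libraries.

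Of 29 axon guidance genes tested 15 fell and 3 rose, with a median of -0.86. The share called was 62.1%, beside the 20.4% of all features. Efnb3, an ephrin ligand gene, had 1.26, 1.06, 1.20 and 1.41 FPKM in the positive and 56.1, 47.9, 53.4 and 52.5 in the negative libraries (-4.58 ± 0.20), and Sema5a, a semaphorin gene, 0.678, 0.778, 0.828 and 0.733 and 45.95, 61.96, 38.05 and 36.1 FPKM (-4.70 ± 0.25). Positive libraries were all under 2 FPKM. Sema4b, another semaphorin gene, rose from 17.5 ± 2.77 to 59.4 ± 8.17 FPKM (1.71), and Slit2, a guidance ligand gene, fell from 29.6 ± 9.00 to 7.27 ± 1.38 FPKM (-1.86). The count of lower guidance genes was 9 with a filter at 5 FPKM, and the 3 higher were 1 without mouse 2, 3 or 4, the positive library of mouse 2 or either library of mouse 3. Of 19 proteoglycan and matrix genes 6 rose and 5 fell. Hapln1, a hyaluronan link protein gene, rose from 5.60 ± 3.02 to 18.2 ± 1.93 FPKM (1.63), while Vcan, the versican gene, and Bgn, the biglycan gene, fell from 185 ± 53.04 and 185 ± 82.9 to 14.5 ± 3.60 and 22.2 ± 4.74 FPKM (-3.57 and -2.92). The 6 were 3 without mouse 2 or 3 or the positive library of mouse 1. Col14a1, a fibril-associated collagen gene, had 0.206, 0.185, 0.194 and 0.101 FPKM in positive and 25.1, 22.1, 28.6 and 24.1 in negative libraries (-4.47 ± 0.17, adjusted p = 8.89e-09), and every positive library was near 0. Col14a1 passed the filter only through the negative spinal cord libraries, where it was high, so its adjusted p is to be read with that limit.

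Of 13 dorsal transcription factors tested 6 fell and 1 rose, with a median of -0.61, and the lower count was 3 without mouse 3. The call of the 1 higher member was lost without any 1 of the 4 mice and in the paired fit of the 8 spinal cord libraries alone. Zic2, a dorsal zinc finger gene, fell from 6.17 ± 1.14 to 0.484 ± 0.316 FPKM (-2.28) and Msx1, a roof plate homeobox gene, from 9.54 ± 4.31 to 2.44 ± 0.754 FPKM (-1.54). Nkx2-2, a ventral homeobox gene also used by oligodendrocyte precursors, fell from 39.1 ± 19.96 to 10.6 ± 1.98 FPKM (-1.63). Tcf7l2, a Wnt effector gene with a known role in oligodendrocyte maturation, had a mean of 41.1 ± 2.55 FPKM in positive libraries, against 146 ± 25.5 in negative ones (-1.80 ± 0.15, adjusted p = 7.28e-06), and Nfix, a nuclear factor I gene, 195, 223, 241 and 184 and 385, 386, 523 and 429 FPKM (-1.02 ± 0.16, adjusted p = 0.000919). Both were apart in all libraries.

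The gate difference of the spinal cord was set against that of the thalamus in the same model. It differed between the regions in 357 of 15930 features (2.24%), of which 315 were protein-coding (2.51%). Without mouse 1, 2, 3 or 4 the count was 206, 29, 27 and 36, and without 1 positive library of mouse 1, 2, 3 or 4 it was 204, 167, 153 and 182. Without the negative library of mouse 2 it was 229. Col14a1 fell by 4.47 in the spinal cord and had 0.27 ± 0.17 in the thalamus, a difference of -4.73 ± 0.24 (adjusted p = 1.91e-06). Efnb3 had -4.58 and -1.36 (difference -3.22 ± 0.28, adjusted p = 9.26e-05), and Sox10 had -5.74 and -3.33 (difference -2.40 ± 0.27, adjusted p = 0.000927). Bcas1 had -5.59 and -3.54 (difference -2.05 ± 0.22, adjusted p = 0.000639), and Aldh1a2, a retinoic acid synthesis gene, had -2.94 and -0.16 (difference -2.78 ± 0.36, adjusted p = 0.00236, 0.079 with a pseudocount of 0.1). The fall was thus steeper in the spinal cord for Efnb3, Sox10 and Bcas1. It was steeper for Col14a1 and Aldh1a2 too, but these 2 genes reached 1 FPKM only in the 4 negative spinal cord libraries. They therefore passed the filter only through the group where they were high, and they were not tested without any 1 mouse or negative library. The opposite held for Slc38a1, which fell by 0.98 in the spinal cord and had -5.31 ± 0.17 in the thalamus (difference 4.32 ± 0.23, adjusted p = 2.29e-06). Among the leading genes that rose, Enpep had 2.47 in the spinal cord and -0.22 in the thalamus (adjusted p of the difference 0.0208). That adjusted p was 0.105, 0.057, 0.12 and 0.124 without mouse 1, 2, 3 or 4 in turn, and 0.0558 and 0.0525 without the positive library of mouse 1 or 4. For Htra1, F3, Dnmt3b, Il18 and Vegfa the difference between the regions did not pass the test, with adjusted p of 0.251, 0.114, 0.089, 0.862 and 0.984. The shared mice link the libraries of both regions.

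**Figure D5:**
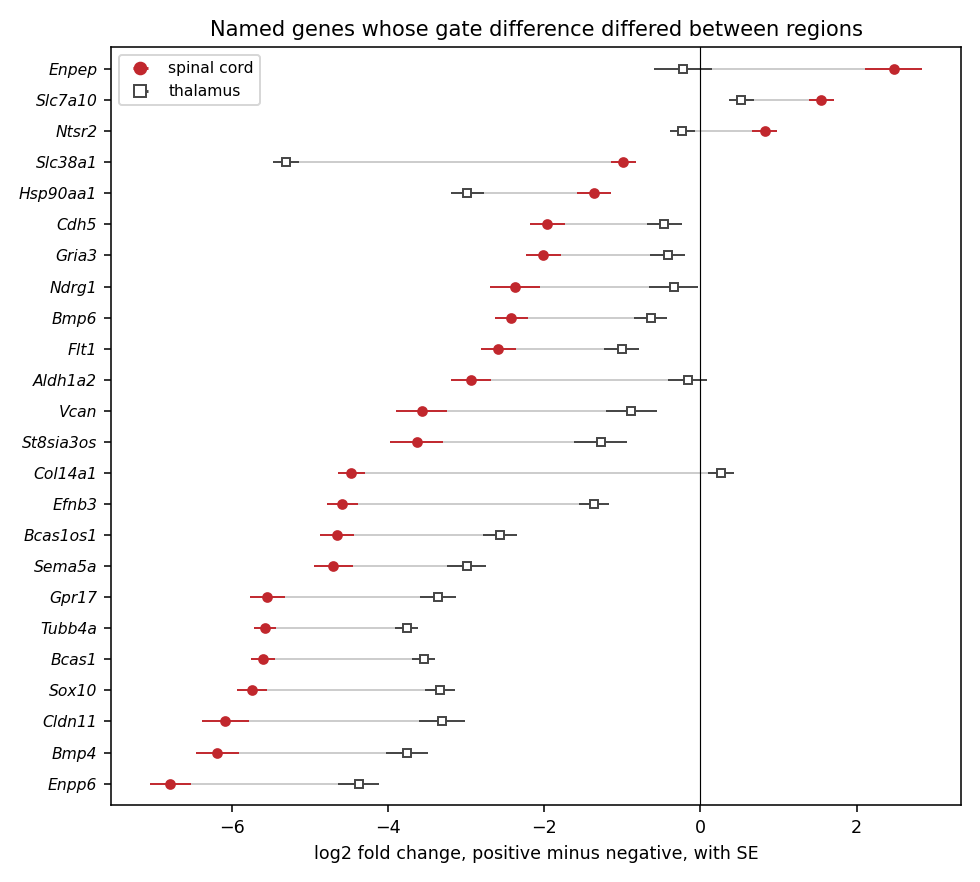
Log2 fold change, positive minus negative, with its SE, in the spinal cord (filled circles) and the thalamus (open squares) for the named genes whose gate difference differed between the regions. Most oligodendrocyte genes lie further left in the spinal cord, whereas Slc38a1 lies further left in the thalamus.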

How the data were processed

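RNA of sorted cells was isolated with a Qiagen RNeasy plus micro kit and made into libraries with NuGEN RNA-Seq V2, per the labels' protocols. The submitters' processing notes name Cufflinks and Cuffnorm, TopHat2 2.0.11 with Bowtie2 2.2.3, HTSeq 0.6.1p1, FastQC, DESeq2 and build GRCm38, without their roles. The authors deposited FPKM values for 39171 features in 16 libraries. Read depth is unknown, so no counting interval is given, and p-values rest on the spread between mice. The table gave no symbol for 16252 features, of which 15208 were named from the reference by identifier.

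The test took the 15930 features that reached 1 FPKM in 4 or more of the 16 libraries. It left out 664 features listed at 0 in a library beside 100 FPKM or more in another of the same group. limma 3.58.1 in R 4.3.3 was fitted to log2(FPKM + 1) of all 16 libraries, with 1 coefficient per group, mouse as a block and a trended prior. Per the labels, a mouse number marks 1 animal across the groups. Their deviations from the group means correlated at 0.022 to 0.087 within mice and at -0.053 to 0.051 between mice. On simulated data, 43, 17, 22 and 38 of 50 genes changed by -2, -1, 1 and 2 on the log2 scale were recovered, and 5 of 15332 unchanged ones were called. The simulation used independent normal noise, 1 SD per gene for all groups and no mouse effect, and only these genes changed. In the data far more features were called, and the median SD was 0.17 in the positive and 0.44 in the negative gate. The simulated counts therefore do not measure the errors of the test in these data.

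The 53 gene lists and the members described were chosen with earlier results of these data known. They carry no test of their own. Named genes were Il33 and Aldh1l1, the 15 largest changes in each direction among protein-coding genes called, moving the same way in all 4 mice and reaching a mean of 10 FPKM in the higher group, the 4 largest in each direction among long noncoding RNAs, up to 4 called members of a list in each direction with a mean of 2 FPKM, and the 10 most abundant genes of the positive libraries. The 13 genes the report names as chosen later were added. Not every gene taken by the rule is described. Results were recomputed under 22 alternatives.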

Additional observations from a re-analysis of the deposited data

Results flagged for a closer look

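In 11 of 226 groups of 4 libraries, those of the 113 genes named, 1 library lay far from the other 3 by Dixon's gap test at the 95% level. Chance alone sets apart about 1 group in 20. In the negative gate these were Il33 at 36.5 FPKM in mouse 1, F3 at 39.6 FPKM in mouse 4 and Bhlhe41 at 12.98 FPKM in mouse 2. In the positive gate mouse 3 stood apart for Rgs5 (3.14 FPKM), Slit2 (9.33 FPKM) and Ndrg1 (1.80 FPKM), mouse 2 for St8sia3os (0.552 FPKM) and Bmp7 (24.1 FPKM), mouse 4 for Gria3 (2.86 FPKM) and Itih3 (104 FPKM), and mouse 1 for Myoc (1.20 FPKM).

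For 24 of the 113 named genes the change between gates differed between spinal cord and thalamus, by the contrast of both changes in limma (adjusted p under 0.05). Over all features tested the share was 2.24%. In 19 of the 24 the spinal cord change was the more negative. Most named genes were chosen for large changes in the spinal cord, so the count and the split follow in part from that choice. The difference on the log2 scale, spinal cord minus thalamus, was -2.41 for Enpp6, -2.43 for Bmp4, -2.78 for Cldn11, -2.40 for Sox10, -2.05 for Bcas1, -2.09 for Bcas1os1, -1.81 for Tubb4a and -2.18 for Gpr17. It was -2.35 for St8sia3os, -1.58 for Flt1, -1.50 for Cdh5, -1.59 for Gria3, -1.78 for Bmp6, -2.03 for Ndrg1, -4.73 for Col14a1, -2.68 for Vcan, -1.70 for Sema5a, -3.22 for Efnb3 and -2.78 for Aldh1a2. It was above 0 for Enpep (2.70), Ntsr2 (1.06), Slc7a10 (1.02), Slc38a1 (4.32) and Hsp90aa1 (1.62). Sox10, Bcas1, Slc38a1 and Efnb3 passed under each of 20 alternatives. Col14a1 passed in the 12 in which it was tested, which leave out no mouse and no negative library, so they say nothing of its stability to these. The other 19 lost the call under at least 1.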

How the results depend on the processing

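None of the called features changed direction in those of the 22 alternatives in which it was tested. Named genes not called could: Sox9 ranged from -0.14 to 0.14 and Aspa from -0.23 to 0.22 on the log2 scale. Of 106 named genes called, 98 stayed called in every alternative in which they were tested, which for 9 of them was fewer than 22, and the report gives the exceptions. The number of features called was 3247, higher 1488 and lower 1759. Leaving out mice or single libraries gave 1742 to 2893, 728 to 1313 and 1014 to 1580 in the same order. The number that differed between regions was 357, and 27 to 412 when mice or libraries were left out (29, 27 and 36 without mouse 2, 3 or 4), with 224 at a pseudocount of 0.1 and 227 with a filter at 5 FPKM. Fewer samples or fewer features enter these fits; the cause of the change at the smaller pseudocount was not tested. The Il33 difference ranged from 0.956 to 8.30 FPKM when mice were left out. Without the replicate block 3242 features were called, among them 3029 of the 3247, and 426 differed between regions; among named genes, leaving out the block ended the call of Olig2 and, for the region difference, of Ndrg1. Fits of the 8 spinal cord libraries alone give no region difference. Library weights by group, chosen after seeing the data, gave 3518. Genes under about 1 FPKM are limited by the pseudocount, and depth is unknown.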
